A study of Mus musculus with 12 samples.

Results

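The genes examined here are 10 genes of glycolysis and lactate metabolism, chosen by symbol: the hexokinase genes Hk1 and Hk2, the isomerase gene Gpi1, the phosphofructokinase genes Pfkm and Pfkp, the aldolase gene Aldoc, Pgk1, Pgam1, and the lactate dehydrogenase genes Ldha and Ldhb. Of these, 9 were measured under their symbol, each by 1 transcript cluster, among 19505 named genes on the array. Gpi1 had no named cluster here and is not analysed. The choice by symbol used no measured value, although it was made with earlier results of these data known.

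The cells came from dissociated brain white matter of C57BL/6 mice and were selected on beads for GLAST, a glutamate transporter of astrocytes (gene Slc1a3), after Fc receptors, which microglia carry, had been blocked. The 4 groups of 3 arrays were GnT-IX-deficient mice after 12 weeks of diet with 0.2% (w/w) cuprizone, and wild-type mice after 0, 3 and 12 weeks of it. Feeding began at 8 to 12 weeks of age in both genotypes. GnT-IX is a glycosyltransferase encoded by Mgat5b, and cuprizone is a copper chelator that kills oligodendrocytes and removes myelin. Mice on the diet for longer were also older when sampled, so cuprizone and age cannot be told apart. The genotypes could be compared after 12 weeks of diet alone. The titles call the replicates biological but do not give the number of mice behind each.

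Glycolysis splits glucose into pyruvate in the cytosol, and lactate dehydrogenase interconverts pyruvate and lactate. Astrocytes are known for active glycolysis, for holding most of the glycogen of the brain and for releasing lactate that neurons and oligodendrocytes can take up. Several steps are run by isoenzymes from different genes, whose balance differs between cell types.

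The deposited values were log2 expression from RMA, a normalization that gives all arrays a like distribution and compresses changes of dim genes. Array medians lay between 5.38 and 5.45 and lower quartiles between 3.73 and 3.85, and the number of arrays limits the precision. Mgat5b stood at 3.70, 4.19 and 4.06 in GnT-IX-deficient arrays against 5.96, 5.88 and 5.57 in wild-type arrays at 12 weeks (limma, adjusted p = 0.00159). The sources used here do not place its probes relative to the mutated part of the gene. Slc1a3, the selection antigen, fell by 1.35 at 3 against 0 weeks in wild-type cells (limma, adjusted p = 0.0150). At 12 against 0 weeks its difference was -1.05 (limma, adjusted p = 0.0546), short of the threshold, with the groups wholly apart. The mean of 11 astrocyte markers lay between 8.39 and 9.47 over the 12 arrays and that of 10 mature oligodendrocyte markers between 8.39 and 9.79. Whether the oligodendrocyte marker signal came from whole cells or from carried-over RNA was not tested. The mean of 13 microglia and macrophage markers was 7.22 to 8.24 in GnT-IX-deficient arrays, and in wild-type arrays 5.16 to 5.73 at 0 weeks, 6.48 to 8.83 at 3 weeks and 7.88 to 9.0 at 12 weeks. In such mixed RNA, fewer cells of a type and less RNA per cell cannot be told apart.

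Among the 9 genes, 1 call was made: Hk1, the hexokinase that most brain cells use, fell after 12 weeks of cuprizone in wild-type cells. At 12 against 0 weeks, 1 of 9 was called lower and 0 higher (limma, adjusted p under 0.05), where 2.64% of all genes were called, 0.523% lower and 2.11% higher. In that comparison 3 of 9 had an unadjusted p under 0.05, as 15.1% of all genes did. At 3 against 0 weeks limma called 0 of 9, where 3.24% of all genes were called, and 4 of 9 had an unadjusted p under 0.05, where 16.1% of all genes did. At 12 against 3 weeks and between the genotypes it called 0 of 9 each, where 0.082% (0.0256% higher, 0.0564% lower) and 0.0256% (0.0205% higher, 0.00513% lower) of all genes were called. In each of them 1 of 9 had an unadjusted p under 0.05, as 11.4% and 6.99% of all genes did. The median log2 difference over the 9 genes was -0.43 at 3 against 0 weeks, -0.37 at 12 against 0 weeks, -0.070 at 12 against 3 weeks and -0.053 between the genotypes. Over all genes those medians were -0.017, -0.013, 0.013 and -0.013.

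The 3 arrays of a group lay wholly apart from those of the other for several of the 9 genes. At 3 against 0 weeks this held for Pgam1 upward, where it held for 10.8% of all genes, and for Hk1, Aldoc and Ldhb downward, where it held for 10.5%. At 12 against 0 weeks it held for Hk2 upward (10.8% of all genes) and for Hk1, Pfkp, Aldoc and Pgk1 downward (9.95%). At 12 against 3 weeks it held for none upward (7.83%) and for Pgam1 downward (8.1%), and between the genotypes for Pgk1 upward (5.27%) and Hk2 downward (5.57%). The comparisons with 0 weeks share the same 3 control arrays.

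**Figure D1:**
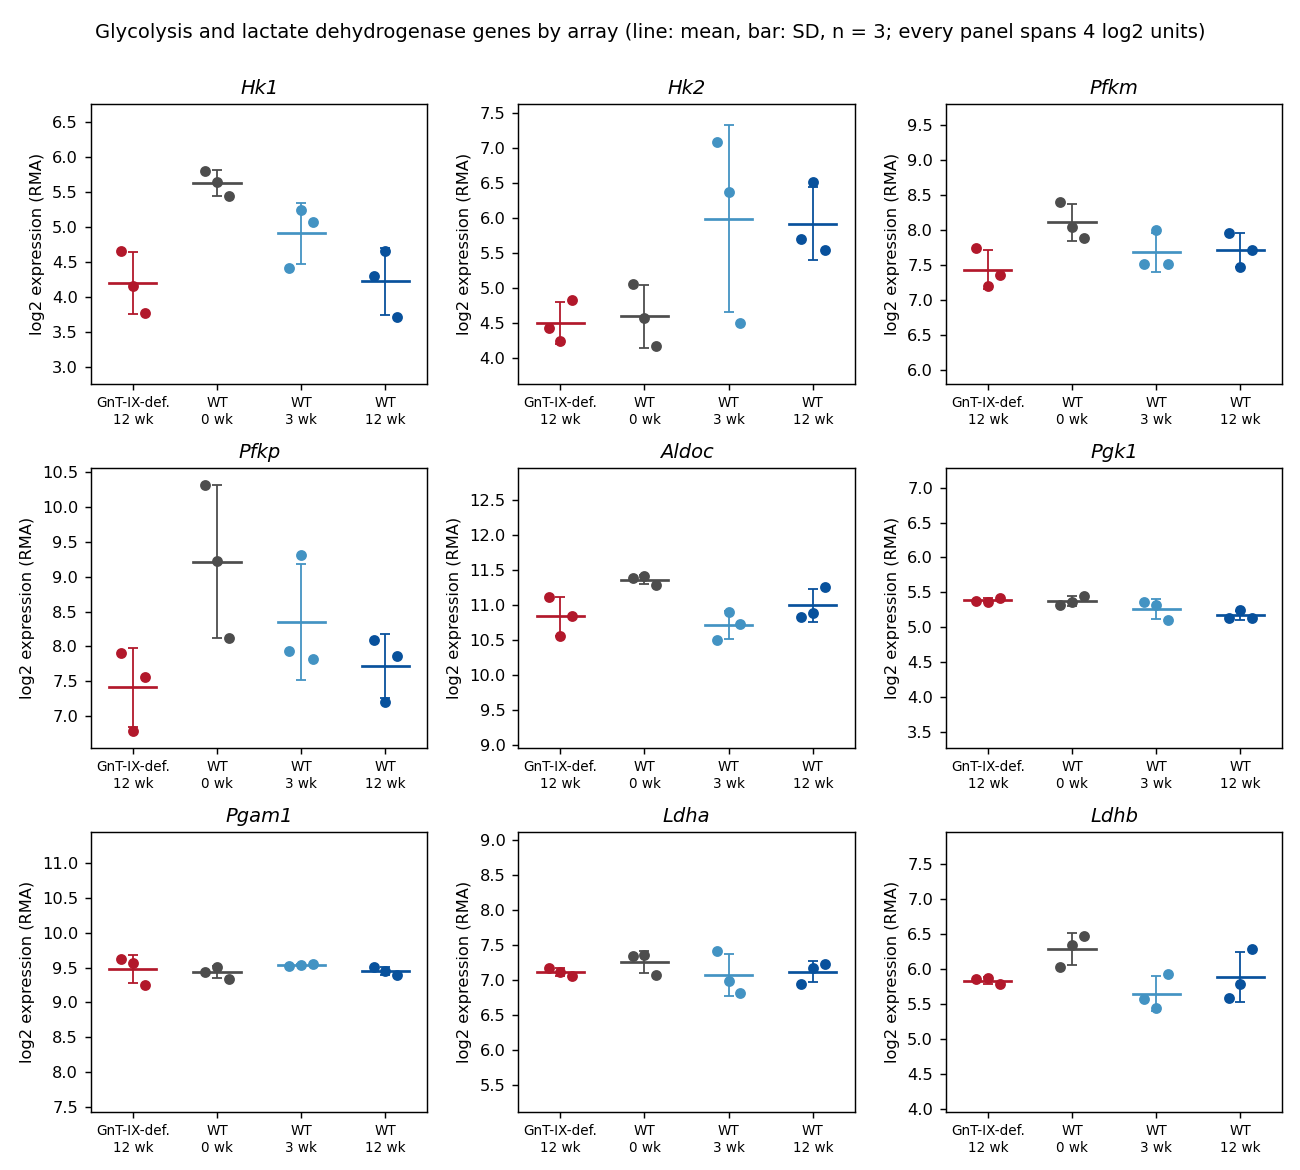
Log2 expression of the 9 measured genes in each array (points), with group means (lines) and SD (bars, n = 3); the groups run from GnT-IX-deficient cells at 12 weeks to wild-type cells at 0, 3 and 12 weeks, and every panel spans the same number of log2 units. The 3 Hk1 values of wild-type cells at 12 weeks (3.71 to 4.66) all lie below those at 0 weeks (5.44 to 5.80), and Pgk1 and Pgam1 hardly spread.

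**Figure D2:**
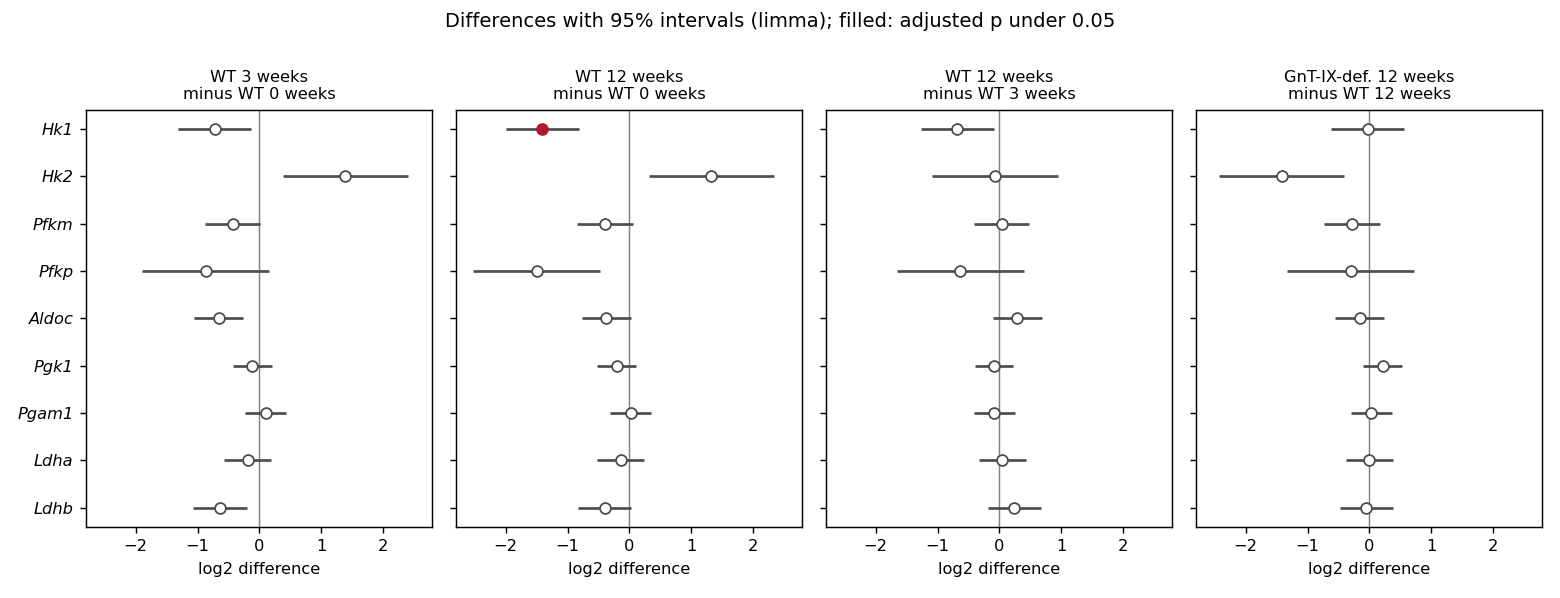
Log2 differences of the 9 genes with unadjusted 95% intervals from limma in the 4 comparisons, filled where the adjusted p was under 0.05. The 1 filled point is Hk1 at 12 against 0 weeks (-1.41), and the intervals of Hk2 and Pfkp are the widest of the 9.

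Hexokinases add the first phosphate to glucose and so hold it in the cell. Hk1 encodes the constitutive enzyme of brain, and Hk2 an inducible enzyme best known from muscle and fat. Both genes are shown with their promoters because Hk1 carried the 1 call and the Hk2 differences from 0 weeks had the opposite sign. RefSeq (GRCm38.p6) lists starts of Hk1 at 2 places and of Hk2 at 1, all on the minus strand, and each window spans 300 bases around a start. Capitals mark ACGTG in either orientation, the core of the hypoxia response element.
Hk1, chr10:62379859-62380158: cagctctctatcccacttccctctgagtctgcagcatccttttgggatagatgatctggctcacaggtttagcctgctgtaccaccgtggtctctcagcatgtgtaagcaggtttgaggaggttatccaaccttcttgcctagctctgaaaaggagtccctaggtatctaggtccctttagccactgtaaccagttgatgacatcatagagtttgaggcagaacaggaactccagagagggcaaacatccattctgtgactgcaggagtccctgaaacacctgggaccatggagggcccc
Hk1, chr10:62340372-62340671: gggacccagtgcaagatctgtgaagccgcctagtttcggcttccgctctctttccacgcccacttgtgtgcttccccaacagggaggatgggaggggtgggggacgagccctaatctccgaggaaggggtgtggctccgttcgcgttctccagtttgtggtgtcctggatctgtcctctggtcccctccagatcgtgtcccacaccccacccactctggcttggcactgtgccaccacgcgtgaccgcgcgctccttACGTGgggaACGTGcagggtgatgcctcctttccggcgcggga
Hk2, chr6:82774405-82774704: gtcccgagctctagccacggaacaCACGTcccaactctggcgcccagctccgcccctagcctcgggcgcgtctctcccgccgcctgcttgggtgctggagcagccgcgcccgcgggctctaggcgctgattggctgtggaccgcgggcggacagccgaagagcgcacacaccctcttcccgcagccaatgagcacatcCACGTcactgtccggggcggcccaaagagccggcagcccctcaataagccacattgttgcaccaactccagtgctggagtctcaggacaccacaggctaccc
The second Hk1 window and the Hk2 window each hold the ACGTG core 2 times, and the first Hk1 window does not hold it. All 10 genes, Gpi1 among them, have promoter windows here, 16 in all, and some windows of Pfkm overlap. Of the 16, 8 hold ACGTG, against 19.6% of 32851 promoters of this length. By gene, 7 of the 10 hold it in some window, and genes with several windows have more room for a match. No share by gene was taken over all genes. No background of like GC content was taken, and whether the shares differ was not tested. The GC box GGGCGG, searched on both strands too, is in 7 of the 16, against 35.7% of all promoters, in 3 copies in the Hk2 window and in neither Hk1 window. ACGTG within CACGTG, which also counts as an E box, occurs in the Ldha and Pfkm windows only, among these 16. These matches describe letters, and no binding was measured.

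Hk1 stood at 4.66, 4.16 and 3.77 (log2) in GnT-IX-deficient arrays, and in wild-type arrays at 5.80, 5.65 and 5.44 at 0 weeks, 4.41, 5.24 and 5.07 at 3 weeks and 4.30, 4.66 and 3.71 at 12 weeks. All values at 3 weeks and at 12 weeks lay below all values at 0 weeks, while the 3-week and 12-week values overlapped. At 12 against 0 weeks Hk1 fell by 1.41 (SE 0.28, limma, adjusted p = 0.0155), a 2.65-fold lower level on the RMA scale. It passed in 11 of 14 alternatives, and missed the threshold when 0-week replicate 1, 0-week replicate 2 or 12-week replicate 3 was left out (adjusted p = 0.0776, 0.0701 and 0.0627). At 3 against 0 weeks the difference was -0.72 (SE 0.28, adjusted p = 0.197) and at 12 against 3 weeks -0.68 (SE 0.28, adjusted p = 0.359). The wild-type means were 5.63, 4.91 and 4.22 at 0, 3 and 12 weeks, with only the ends of this course apart by more than the test's threshold.

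Between the genotypes Hk1 differed by -0.027 (95% interval -0.62 to 0.56, adjusted p = 0.990), which leaves room for differences of either sign within that interval. At 12 weeks the lowest Hk1 values, 3.77 in GnT-IX-deficient arrays and 3.71 in wild-type arrays, were at the lower quartile of the arrays, where RMA compresses differences. Between the group means at 12 against 0 weeks, microglia and macrophage markers moved opposite to Hk1. Of 13 such markers, 11 were called higher in that comparison, with a median of 2.99. Of 11 astrocyte markers, 1 was called lower and 1 higher in that comparison, with 9 below 0 and a median of -0.48. Of 10 mature oligodendrocyte markers, 1 was called lower, with 9 below 0 and a median of -0.83. Of 9 endothelial and mural markers, 3 were called higher, with 8 above 0 and a median of 0.88. The unadjusted p from limma was under 0.05 for 5, 7 and 7 of them in turn, as for 15.1% of all genes. Of all genes 2.11% were called higher and 0.523% lower. Within the wild-type groups at 0 and 12 weeks, the array with the highest microglial marker mean had the highest Hk1 value. These were 5.73 beside 5.80 and 9.0 beside 4.66. At 3 weeks it had the lowest Hk1 value (8.83 beside 4.41), and in GnT-IX-deficient cells the middle one (8.24 beside 4.16). The part of the cell types named here in the fall of Hk1 was not tested.

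Hk2 stood at 4.43, 4.24 and 4.83 in GnT-IX-deficient arrays, and in wild-type arrays at 5.06, 4.56 and 4.16 at 0 weeks, 7.09, 6.37 and 4.50 at 3 weeks and 5.70, 6.51 and 5.54 at 12 weeks. The 3-week arrays were split, with replicate 3 inside the range of the 0-week arrays, and the 12-week arrays all lay above the 0-week arrays. No call resulted: the difference was 1.39 (SE 0.48, adjusted p = 0.141) at 3 against 0 weeks and 1.32 (SE 0.48, adjusted p = 0.184) at 12 against 0 weeks. With 3-week replicate 3 left out, the difference at 3 weeks was 2.14 and passed the threshold (adjusted p = 0.00489), and with 3-week replicate 1 left out it was 0.84 (adjusted p = 0.467). With only the 6 arrays compared, the difference at 12 weeks passed too (adjusted p = 0.0255).

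Between the genotypes Hk2 had the largest difference of the 9 genes, -1.42 (95% interval -2.43 to -0.40, unadjusted p = 0.00927 and adjusted p = 0.524 from limma). All 3 GnT-IX-deficient values lay below all 3 wild-type values at 12 weeks. The GnT-IX-deficient mean was 4.50 ± 0.30, against 5.92 ± 0.52 in wild-type cells at 12 weeks (SD, n = 3 each), and the wild-type mean at 0 weeks was 4.59 ± 0.45 (SD, n = 3). Within the wild-type groups the array with the highest microglial marker mean also had the highest Hk2 value, with marker means of 5.73, 8.83 and 9.0 beside Hk2 values of 5.06, 7.09 and 6.51 at 0, 3 and 12 weeks. In GnT-IX-deficient arrays the highest marker mean, 8.24, stood beside the lowest Hk2 value, 4.24. None of the 13 markers was called between the genotypes, and all 13 had negative differences, with a median of -0.67. The part of microglia in the Hk2 values was not tested.

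**Figure D3:**
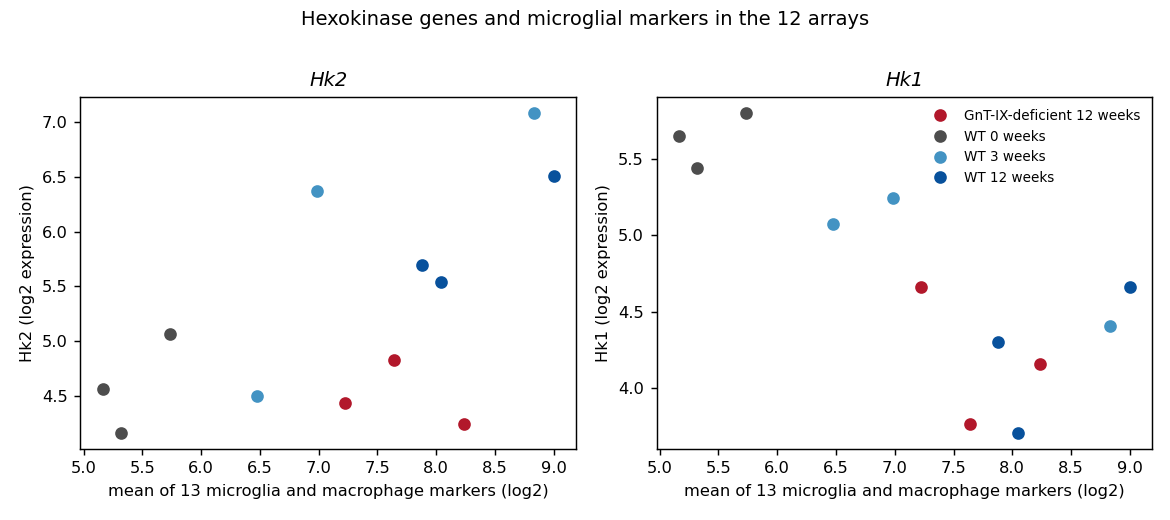
Log2 expression of Hk2 (left) and Hk1 (right) against the mean of 13 microglia and macrophage markers in each of the 12 arrays, coloured by group. Hk2 lies between 4.24 and 4.83 in the 3 GnT-IX-deficient arrays, whose marker means of 7.22 to 8.24 reach into the range of the wild-type arrays at 12 weeks.

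Phosphofructokinase adds the second phosphate and is the main control point of glycolysis. Pfkp, the gene of its platelet-type subunit, which brain uses widely, stood at 7.90, 6.79 and 7.56 in GnT-IX-deficient arrays. In wild-type arrays it stood at 10.31, 9.22 and 8.12 at 0 weeks, 7.93, 9.31 and 7.82 at 3 weeks and 8.09, 7.20 and 7.87 at 12 weeks. The 0-week arrays spread over 2.19 log2 units, and their lowest value lay just above the highest 12-week value. The difference at 12 against 0 weeks was -1.50 (95% interval -2.52 to -0.47, adjusted p = 0.133), which missed the threshold. It passed with 0-week replicate 3 left out (-2.04, adjusted p = 0.0366) and with array weights (-1.65, adjusted p = 0.0459), but was -0.95 (adjusted p = 0.454) with 0-week replicate 1 left out. At 3 against 0 weeks it was -0.86 (adjusted p = 0.413), or -0.32 with 0-week replicate 1 left out and -1.41 with 0-week replicate 3 left out, and between the genotypes -0.30 (95% interval -1.33 to 0.72, adjusted p = 0.919).

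Pfkm, the gene of the muscle-type subunit, stood at 7.74, 7.20 and 7.36 in GnT-IX-deficient arrays, and in wild-type arrays at 8.40, 8.04 and 7.89 at 0 weeks, 7.52, 8.00 and 7.52 at 3 weeks and 7.96, 7.47 and 7.72 at 12 weeks. Groups overlapped in every pair of wild-type times, and the differences from 0 weeks were -0.43 (adjusted p = 0.333) at 3 weeks and -0.39 (adjusted p = 0.413) at 12 weeks. The highest value of both phosphofructokinase genes came from replicate 1 of the 0-week group and the lowest of both from replicate 2 of the GnT-IX-deficient group.

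Aldolase cleaves the doubly phosphorylated sugar, and Aldoc encodes the brain form, which astrocytes express at a high level. Aldoc stood at 11.12, 10.56 and 10.84 in GnT-IX-deficient arrays, and in wild-type arrays at 11.39, 11.41 and 11.29 at 0 weeks, 10.50, 10.90 and 10.72 at 3 weeks and 10.83, 10.89 and 11.26 at 12 weeks. Every array after cuprizone lay below the 3 arrays at 0 weeks, which were within 0.12 of each other. The difference at 3 against 0 weeks was -0.66 (95% interval -1.05 to -0.26, adjusted p = 0.0718), short of the threshold, and it passed with array weights (adjusted p = 0.0399) and with trend and robust variance (0.0424). It was -0.37 (adjusted p = 0.376) at 12 against 0 weeks and -0.15 (adjusted p = 0.881) between the genotypes. Astrocyte markers moved with Aldoc at 3 weeks: 5 of 11 were called lower and 1 higher, with 10 below 0 and a median of -0.94. Of all genes 1.63% were called lower and 1.61% higher. The astrocyte marker mean was 8.49 to 8.84 at 3 weeks against 9.11 to 9.47 at 0 weeks. The part of the astrocyte share in the Aldoc values was not tested.

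Pgk1 and Pgam1 encode phosphoglycerate kinase, which makes the first ATP of the pathway, and phosphoglycerate mutase, which acts after it. Both varied little between arrays. Pgam1 lay between 9.25 and 9.62 over all 12 arrays, with means of 9.48 ± 0.20 in GnT-IX-deficient cells and 9.43 ± 0.09, 9.53 ± 0.02 and 9.45 ± 0.06 in wild-type cells at 0, 3 and 12 weeks (SD, n = 3 each). Its 4 differences lay between -0.083 and 0.10, and the 95% intervals within -0.41 and 0.43. Pgk1 lay between 5.10 and 5.45, where the array medians were 5.38 to 5.45. Its differences were -0.12 and -0.20 at 3 and 12 weeks against 0 weeks. Between the genotypes its difference was 0.21 (95% interval -0.10 to 0.53, limma, adjusted p = 0.798). The 3 Pgk1 values of GnT-IX-deficient cells (5.38, 5.36 and 5.42) all lay above those of wild-type cells at 12 weeks (5.13, 5.25 and 5.14). Pgk1, Pgam1 and Ldha have processed pseudogenes whose transcripts probes may not separate, so their values are uncertain in that respect.

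Ldha encodes the subunit that favours making lactate from pyruvate, and Ldhb the subunit that favours using lactate. Ldha stood at 7.17, 7.12 and 7.06 in GnT-IX-deficient arrays, and in wild-type arrays at 7.34, 7.36 and 7.08 at 0 weeks, 7.41, 6.99 and 6.82 at 3 weeks and 6.95, 7.18 and 7.23 at 12 weeks. Its groups overlapped in all 4 comparisons. Its differences were -0.19 (95% interval -0.57 to 0.19) at 3 weeks and -0.14 (-0.52 to 0.24) at 12 weeks against 0 weeks, and -0.0033 (-0.38 to 0.38) between the genotypes.

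Ldhb stood at 5.85, 5.87 and 5.78 in GnT-IX-deficient arrays, and in wild-type arrays at 6.03, 6.35 and 6.47 at 0 weeks, 5.57, 5.44 and 5.93 at 3 weeks and 5.59, 5.79 and 6.28 at 12 weeks. The 3-week values all lay below the 0-week values, and the 12-week values overlapped them. The difference at 3 against 0 weeks was -0.64 (95% interval -1.07 to -0.21, adjusted p = 0.111), and at 12 against 0 weeks -0.40 (-0.83 to 0.033, adjusted p = 0.381), neither of them past the threshold.

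The spread between arrays of a group differed widely among the 9 genes. The within-group SD was 0.78 for Pfkp and 0.77 for Hk2, each above that of over 99% of genes, against a median of 0.25 over all genes. It was 0.40 for Hk1, 0.27 for Pfkm, 0.25 for Ldhb, 0.21 for Aldoc, 0.19 for Ldha, 0.11 for Pgam1 and 0.086 for Pgk1. Before testing, limma draws the spread of each gene toward a value common to all genes. The SEs of the differences after that were 0.48 for Hk2 and Pfkp but 0.15 for Pgk1 and Pgam1.

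For the steps with a pair of measured isoenzymes, the log2 difference between the pair was taken within each array. Its level has no meaning between different probes, and only its change between groups is compared. Hk2 minus Hk1 was -0.23, 0.080 and 1.06 in GnT-IX-deficient arrays, and in wild-type arrays -0.74, -1.09 and -1.28 at 0 weeks, 2.68, 1.13 and -0.57 at 3 weeks and 1.4, 1.85 and 1.83 at 12 weeks. It changed by 2.12 at 3 against 0 weeks, by 2.73 at 12 against 0 weeks and by -1.39 between the genotypes, in each case without overlap and with an exact permutation p of 0.1 (two-sided). With 3 against 3 arrays 0.1 is the smallest p possible, and adjusted over the 12 changes tested it became 0.24, so none could pass. With 1 array left out, the change at 3 against 0 weeks ranged from 1.32 (without 3-week replicate 1) to 2.94 (without 3-week replicate 3).

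Pfkp minus Pfkm averaged -0.017 ± 0.34 in GnT-IX-deficient arrays, and in wild-type arrays 1.11 ± 0.84 at 0 weeks, 0.67 ± 0.55 at 3 weeks and 0.0033 ± 0.24 at 12 weeks (SD, n = 3 each). It changed by -1.10 at 12 against 0 weeks and by -0.67 at 12 against 3 weeks, both without overlap (exact permutation p = 0.1 each). With 1 array left out these changes ranged from -1.54 to -0.70 (weakest without 0-week replicate 1) and from -0.86 to -0.35 (weakest without 3-week replicate 2). Ldhb minus Ldha averaged -1.28 ± 0.035 in GnT-IX-deficient arrays, and in wild-type arrays -0.98 ± 0.35, -1.43 ± 0.49 and -1.23 ± 0.25 at 0, 3 and 12 weeks (SD, n = 3 each). Its groups overlapped in all 4 comparisons.

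**Figure D4:**
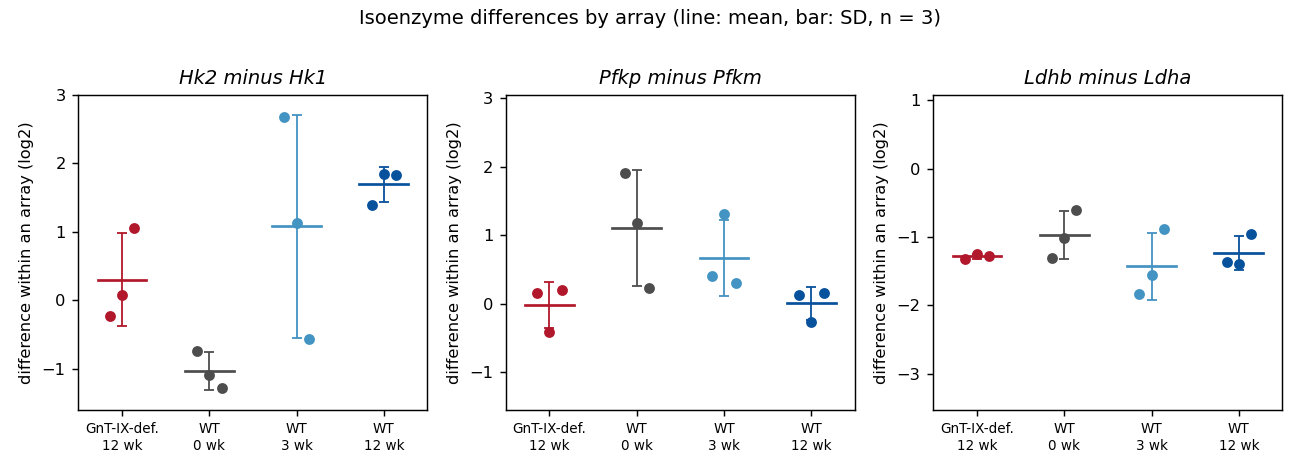
Log2 difference between the isoenzyme genes of a step within each array (points), with group means (lines) and SD (bars, n = 3), for GnT-IX-deficient cells at 12 weeks and wild-type cells at 0, 3 and 12 weeks. Hk2 minus Hk1 lies between -1.28 and -0.74 at 0 weeks and between 1.4 and 1.85 at 12 weeks in wild-type cells, while Ldhb minus Ldha overlaps between all groups.

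The other enzymes of the glycolytic steps gave no call. Of 22 listed, 19 were measured, and limma called 0 in each of the 4 comparisons. These are given as 3 against 0, 12 against 0 and 12 against 3 weeks, then between the genotypes. In that order 1, 2, 4 and 1 of the 19 had an unadjusted p under 0.05. Of all genes 16.1%, 15.1%, 11.4% and 6.99% did. The medians of the 19 were -0.060, -0.11, -0.013 and 0.073 in the same order. Gapdh, Aldoa and Pkm, widely expressed enzymes picked after their values were seen, had differences between -0.25 and 0.29 in all 4 comparisons. Gapdh stood at 10.97, 11.04 and 10.84 in GnT-IX-deficient arrays against 10.78, 10.81 and 10.94 in wild-type arrays at 12 weeks. Those groups overlapped for Gapdh, which lay wholly lower at 3 against 0 weeks (difference -0.25, adjusted p = 0.452). Aldoa lay wholly higher in GnT-IX-deficient arrays (9.89, 9.90 and 9.61) than in wild-type arrays at 12 weeks (9.48, 9.53 and 9.52; difference 0.29, adjusted p = 0.739), and Pkm wholly higher at 12 against 0 weeks (difference 0.24, adjusted p = 0.613). Of the 19, 1 lay wholly lower at 3 against 0 weeks (10.5% of all genes) and 2 wholly higher between the genotypes (5.27%). At 12 against 0 weeks 1 lay wholly higher (10.8%) and 3 wholly lower (9.95%). Eno2, the enolase of neurons, also picked after its values were seen, had the smallest p of the list. Its difference was -0.72 (limma, adjusted p = 0.0874) at 12 against 3 weeks. Of 10 neuron markers 1 was called lower in that comparison, as 0.0564% of all genes were, with 9 below 0 and a median of -0.40. At 12 against 0 weeks Eno2 differed by -0.52 (limma, adjusted p = 0.108), with the groups wholly apart, beside a neuron marker median of 0.08. Its differences were 0.20 at 3 against 0 weeks and 0.31 between the genotypes, beside neuron marker medians of 0.47 and 0.28. The part of neurons in the Eno2 values was not tested.

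Genes that feed or drain the pathway were listed too. Of 12 measured genes that control glycolytic flux (the bifunctional Pfkfb enzymes, fructose bisphosphatases and glucose transporters), limma called 0 in all 4 comparisons, with 3, 1, 2 and 0 at an unadjusted p under 0.05 at 3 against 0, 12 against 0 and 12 against 3 weeks and between the genotypes. It also called 0 of 13 genes of pyruvate entry into mitochondria (2, 0, 0 and 1 at an unadjusted p under 0.05). Of 6 genes of the pentose phosphate pathway it called 0 too (0, 1, 1 and 2). Of all genes 16.1%, 15.1%, 11.4% and 6.99% had an unadjusted p under 0.05 in those comparisons. Of 16 hypoxia-inducible genes outside glycolysis, 1 rose at 12 against 0 weeks, where 2.11% of all genes rose. It was Egln3, which encodes an oxygen-sensing prolyl hydroxylase, at 5.40, 5.95 and 5.85 at 12 weeks against 3.97, 4.92 and 5.06 at 0 weeks (difference 1.08, SE 0.27, adjusted p = 0.0443). Egln3 missed the threshold when any of 4 arrays was left out (0-week replicates 1 and 2 and 12-week replicates 2 and 3, adjusted p = 0.202, 0.0891, 0.212 and 0.133), with median centring (0.0556) and with only the 6 arrays compared (0.0566). Of the 16 genes limma called 0 at 3 against 0 weeks, at 12 against 3 weeks and between the genotypes, with 4, 2 and 3 at an unadjusted p under 0.05, as 16.1%, 11.4% and 6.99% of all genes had.

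Of 16 measured genes of glycogen synthesis and breakdown, 4 fell, 0 rose and 12 did not pass the test at 3 against 0 weeks, where 1.63% of all genes fell, and the median over the 16 was -0.53. Phkg1, the catalytic subunit gene of the kinase that activates glycogen phosphorylase, stood at 6.61, 7.14 and 6.83 at 3 weeks against 8.14, 8.02 and 8.19 at 0 weeks, a fall of 1.26 (SE 0.23, adjusted p = 0.00877), and kept its call in all 14 alternatives. Phka1, a regulatory subunit gene of the same kinase, fell by 1.17 (SE 0.26, adjusted p = 0.0224), and Ppp1r3d, a glycogen-targeting subunit gene of protein phosphatase 1, fell by 1.16 (SE 0.26, adjusted p = 0.0237). Pygm, the muscle-type glycogen phosphorylase gene that astrocytes also express, fell by 1.20 (SE 0.30, adjusted p = 0.0448) and is named beyond the naming rule.

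Gys1, glycogen synthase, and Pgm1, phosphoglucomutase, named after their values were seen, missed the threshold with differences of -0.81 (adjusted p = 0.0832) and -0.89 (adjusted p = 0.0673). At 12 against 0 weeks limma called 0 of the 16, with 5 at an unadjusted p under 0.05 (15.1% of all genes) and a median of -0.27. It also called 0 at 12 against 3 weeks (5 at an unadjusted p under 0.05, against 11.4% of all genes, median 0.29). Between the genotypes it called 0 too (0 at an unadjusted p under 0.05, against 6.99% of all genes, median -0.16). The 4 calls became 1 when 0-week replicate 1 or 0-week replicate 2 was left out, and 2 when any of the 3 arrays at 3 weeks was. Over the 6 arrays left out in turn, adjusted p ranged from 0.0142 to 0.105 for Phka1, from 0.0349 to 0.105 for Ppp1r3d and from 0.0363 to 0.184 for Pygm, which missed the threshold without any 1 of the 3 arrays at 0 weeks (0.133, 0.123 and 0.107) and without 3-week replicate 1 or 2 (0.184 and 0.0504). Astrocyte markers, of which 5 of 11 were called lower at 3 weeks, moved with these genes, and their part was not tested.

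**Figure D5:**
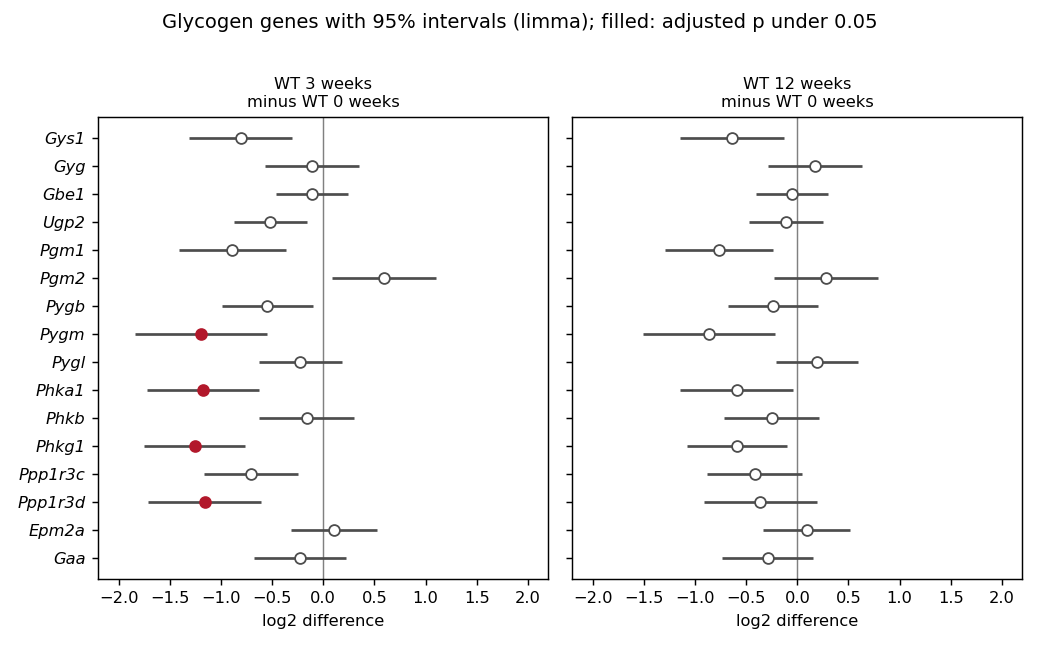
Log2 differences of 16 glycogen genes with unadjusted 95% intervals from limma in wild-type cells at 3 against 0 weeks (left) and 12 against 0 weeks (right), filled where the adjusted p was under 0.05. The 4 filled points at 3 weeks, Phkg1, Pygm, Phka1 and Ppp1r3d, lie between -1.26 and -1.16.

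Lactate leaves or enters cells through monocarboxylate transporters, which need the chaperones encoded by Bsg or Emb. Of 6 such genes, Emb was the 1 call at 3 against 0 weeks and the 1 call between the genotypes, where 1.61% and 0.0205% of all genes were called higher. It stood at 7.25, 6.89 and 6.46 in GnT-IX-deficient cells against 4.33, 4.48 and 3.92 in wild-type cells at 12 weeks (difference 2.62, SE 0.29, adjusted p = 0.00159). At 3 weeks it stood at 4.83, 4.94 and 6.06, against 3.83, 3.53 and 3.86 at 0 weeks (difference 1.54, SE 0.29, adjusted p = 0.00993), which missed the threshold with 0-week replicate 2 left out (adjusted p = 0.0538). Choroid plexus markers moved with Emb between the genotypes. The mean of 8 of them was 8.11, 7.08 and 5.43 in GnT-IX-deficient cells against 4.94, 5.31 and 4.30 in wild-type cells at 12 weeks. None of the 8 was called, and 6 had an unadjusted p under 0.05, where 6.99% of all genes did. The median difference of the 8 was 2.06. At 3 against 0 weeks, where Emb was called too, that median was 0.22. Of the 8, 0 were called there and 0 had an unadjusted p under 0.05, where 16.1% of all genes did. The 3-week array with the highest Emb value, 6.06, also had the highest marker mean of its group, 5.89. The part of choroid plexus in the Emb values was not tested. The other 5 transport genes were not called in any comparison.

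Across the 12 arrays, the genes whose log2 values ran most like those of Hk1 were Prkab2, a regulatory subunit gene of the energy sensor AMPK (Pearson r = 0.94), Nle1, which encodes a ribosome assembly factor (0.92), and Ccdc166 (0.92). With each group's mean removed the r values were 0.78, 0.86 and 0.94. Ccdc166 lay between 2.92 and 3.68, below the lower quartile of every array (3.73 to 3.85). Prkab2 stood at 5.56, 5.78 and 5.47 at 12 weeks against 6.52, 6.57 and 6.21 at 0 weeks in wild-type cells. It fell by 0.83 (SE 0.20, limma, adjusted p = 0.0407, not recomputed under the alternatives). Nle1 and Ccdc166 were not called in that comparison (limma, adjusted p = 0.164 and 0.388). These 3 genes were picked over all genes for running like Hk1 in these same arrays. That choice favours a fall where Hk1 fell, so their p values are no separate test. The points also share the normalization and the cell mixture of each array.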

How the data were processed

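Log2 expression values of 22206 transcript clusters in 12 arrays were used as deposited. Per the submitters' processing notes, the authors ran RMA in Affymetrix Expression Console 1.4. Per the labels' protocols, RNA came from either of a pair of extraction kits, with no kit assigned to a sample, so its part could not be tested. Clusters were named through the platform annotation and RefSeq (GRCm38.p6) by Entrez identifier: 19572 had 1 symbol, none had several and 2634 are unnamed here. For 55 genes with several clusters the brightest over the 12 arrays was kept, leaving 19505 genes with no filter on dim ones.

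The test was that of limma 3.58.1 under R 4.3.3 (1 mean per group, all 12 arrays, 8 residual degrees of freedom, two-sided, Benjamini-Hochberg over all genes, threshold 0.05), and the fit was tested on simulated data. Intervals are unadjusted 95% intervals of that fit. The genes named were the listed ones, called members of the pathway lists (up to 3 each), and the 3 genes most like a called member in Pearson r. Members and lists were chosen with earlier results of these data known, and the isoenzyme differences and the alternatives for list genes were added after seeing the data. Alternatives covered cyclic loess, centring, dim genes, cluster choice, variance model, array weights, arrays in the fit, the replicate block and each array left out. Plots used matplotlib 3.10.9.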

Additional observations from a re-analysis of the deposited data

How the results depend on the processing

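The count of called genes among the 9 was 0 at 3 against 0 weeks and became 1 with trend and robust variance or with array weights (Aldoc lower in both), and 0 to 1 over the arrays left out one at a time. At 12 against 0 weeks it was 1 and became 2 with array weights or with only the 6 arrays compared, and 0 to 2 over the arrays left out. Over all genes, the calls ranged from 192 to 643 at 3 against 0 weeks (632 with all arrays), 77 to 504 at 12 against 0 weeks (514), 0 to 146 at 12 against 3 weeks (16) and 3 to 49 between the genotypes (5) as 1 array was left out. Array weights gave 919 calls at 12 against 0 weeks. At 12 against 3 weeks the count was 9 without the dimmest 30% of genes or with only the 6 arrays, 30 with trend and robust variance and 33 with array weights. The causes were not tested.

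Signs turned only for differences that were not called. Pgam1 at 12 against 0 weeks was -0.033 with median centring, Hk2 at 12 against 3 weeks 0.13 with array weights, and Ldha between the genotypes 0.020 with cyclic loess and 0.017 with median centring. With 1 array left out, Pgam1 ranged from -0.025 to 0.060 at 12 against 0 weeks. At 12 against 3 weeks Hk2 ranged from -0.81 to 0.48, Pfkm from -0.085 to 0.197 and Ldha from -0.080 to 0.215. Between the genotypes Hk1 ranged from -0.28 to 0.19, Pfkp from -0.56 to 0.010, Pgam1 from -0.040 to 0.145, Ldha from -0.088 to 0.052 and Ldhb from -0.20 to 0.14. Of the isoenzyme differences, Hk2 minus Hk1 at 12 against 3 weeks ranged from -0.21 to 1.41, Pfkp minus Pfkm between the genotypes from -0.16 to 0.18, and Ldhb minus Ldha from -0.013 to 0.46 at 12 against 3 weeks and from -0.13 to 0.092 between the genotypes.

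Groups share replicate numbers, but deviations of same-numbered arrays correlated with r of -0.279 to 0.216 over 18 pairs, 6 of them over 0.1, so the numbers were not taken to pair samples. With the replicate block 0, 1, 0 and 0 of the 9 were called in the 4 comparisons (Hk1 at 12 against 0 weeks, adjusted p = 0.0191), and of the named list genes Pygm lost its call (0.0692). Signal over background was not available here, so how far the dim values of Hk1, Hk2 and Pgk1 understate a change is unknown.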
